A study of Mus musculus with 2 samples.

Results

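The matrix metalloproteinases (MMPs), the ADAMs, the ADAMTS proteases with their ADAMTS-like relatives, and the tissue inhibitors of metalloproteinases (TIMPs) were followed across the cell types of 2 mouse liver libraries. Members were taken by symbol, as every Mmp, Timp, Adam, Adamts or Adamtsl gene with a number that was listed for both libraries. This gave 72 of 25114 shared symbols: 20 MMPs, 4 TIMPs, 24 ADAMs, 19 ADAMTS genes and 5 ADAMTS-like genes. The choice by symbol used no measured value.

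The proteases cut the extracellular matrix, growth factors and proteins of the cell surface. MMPs are made as inactive precursors, and plasmin, furin-type convertases or other MMPs activate them. Secreted collagenases, gelatinases and stromelysins act on collagen and other matrix proteins, while membrane-type MMPs work at the cell surface. ADAMs are membrane proteins, and ADAM10 and ADAM17 shed receptors, cytokine precursors and growth factors. ADAMTS proteases are secreted and cut proteoglycans, procollagens or von Willebrand factor. TIMPs inhibit these enzymes. In the injured liver, stellate cells, which are the retinoid-storing pericytes, are known for making matrix and TIMPs, and macrophages for making MMPs that degrade scar.

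The libraries were made with the BD Rhapsody whole transcriptome assay from liver cells of male littermates that had both undergone partial inferior vena cava ligation (pIVCL), which impedes the outflow of blood from the liver. By its genotype label, 1 mouse was Cdh5-CreERT2; Ctgf fl/fl, with a tamoxifen-inducible Cre recombinase driven by the endothelial Cdh5 promoter, and the other was Ctgf fl/fl without Cre. Both thus carried floxed alleles of Ctgf (current symbol Ccn2, connective tissue growth factor), and no source used here gives their ages or tamoxifen doses. Hepatocytes, dead cells and erythrocytes had been depleted, so the suspensions are not the whole liver. The titles contradict the genotypes, since the mouse with Cre is titled as the control and the mouse without it as the knockout. Ccn2 stood at 1093 CPM in endothelial-like cells of the library whose genotype lacks Cre and at 4.98 CPM in the library whose genotype has it. That went with the genotypes, which are followed here as "the library labelled control" and "the library labelled knockout". CPM means counts of a gene scaled to 1000000 counts of the named class in that library.

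With 1 mouse per label no test of a difference was possible. "Higher" and "lower" mean a CPM of the library labelled knockout at least 1.5-fold above or below that of the library labelled control, by size alone. Log2 ratios are knockout over control, and intervals are 95% and cover counting error only. Between the mice, genotype, surgery and cell preparation cannot be told apart. Of 10000 barcodes per library, 7550 and 8375 were used in the order control, knockout, and all pairs of values below follow that order. Clusters that mixed the markers of several classes stayed unnamed and held 22.6% and 19.4% of the used cells. The libraries shared 2 cell numbers. Cells were clustered without the 72 members.

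A run of MMP genes on chromosome 9 holds 8 of the members, in the RefSeq order Mmp13, Mmp12, Mmp1b, Mmp3, Mmp1a, Mmp10, Mmp8, Mmp27, Mmp20 and Mmp7, of which Mmp1a and Mmp10 were listed for the library labelled control only. These neighbours were read in unlike cells: Mmp12, Mmp13 and Mmp27 in macrophages, Mmp8 in neutrophils and Mmp3 in an unnamed fibroblast and mesothelial cluster. The 100 bases before their RefSeq transcription starts are shown for 4 of them, because the macrophage results turn on Mmp12, Mmp13 and Mmp27, with Mmp3 as a neighbour from another cell type. Capitals mark the motif TGANTCA, the site by which AP-1 transcription factors are known, which is its own reverse complement and was searched on both strands. All windows are on the plus strand of build GRCm38.p6. By GENCODE annotation of that build, none of the 4 overlaps an exon. The Mmp12 window, chr9:7347274-7347373, lies before the second of its RefSeq starts, in an intron of the annotated gene. The window before the first start, chr9:7344297-7344396, overlaps an exon of Mmp12, holds no such motif and is not shown. The Mmp13 window is chr9:7272414-7272513, the Mmp3 window chr9:7445722-7445821 and the Mmp27 window chr9:7571296-7571395, and these 3 lie outside annotated genes.
Mmp12: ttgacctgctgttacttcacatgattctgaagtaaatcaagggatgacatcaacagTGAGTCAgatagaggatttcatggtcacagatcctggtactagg
Mmp13: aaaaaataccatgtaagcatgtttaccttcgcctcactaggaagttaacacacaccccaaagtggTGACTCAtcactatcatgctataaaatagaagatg
Mmp3: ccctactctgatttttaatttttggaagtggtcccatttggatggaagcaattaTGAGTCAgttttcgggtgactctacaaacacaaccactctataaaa
Mmp27: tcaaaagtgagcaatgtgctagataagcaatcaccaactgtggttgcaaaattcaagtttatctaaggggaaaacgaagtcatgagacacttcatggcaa

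The first base of the motif lay 44 bases before the start for the second start of Mmp12, 35 for Mmp13 and 46 for Mmp3, and the windows of Mmp27 and Mmp8 held none. In windows from 250 bases before to 50 after a start, the motif occurred in 8 of the 45 members found in the RefSeq table (17.8%), in 6 of 15 MMPs (40.0%) and in 2425 of 27025 genes overall (8.97%), counting a gene where any of its starts had it. The 8 members were Adam19, Adam29, Mmp1b, Mmp3, Mmp7, Mmp12, Mmp13 and Mmp20. The letters describe these windows and do not show that a factor binds there.

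Members differed in how many cell classes they were seen in. A member counted as measured in a class where its counts in the 2 libraries summed to 20 or more and its level reached 10 CPM in either. By this rule 44 of the 72 were measured in at least 1 of 13 classes, 28 in none, 16 in a single class and 10 in 8 or more. The 13 classes are those with at least 50 cells over both libraries. Cholangiocyte-like cells, 5 and 42, were therefore left out of these numbers and of the ranking. The class of highest CPM, averaged over the libraries, was mesenchymal-like for 20 members, scar-type macrophage-like for 6, endothelial-like for 5, Kupffer-like for 4, neutrophil-like for 4, plasmacytoid dendritic-like for 2, and B-like, NK or ILC1-like and hepatocyte-like for 1 each. The 28 others include germline ADAMs such as Adam2 and Adam3, and Mmp3, Mmp7, Mmp28 and Timp4. Unnamed clusters were left out of this ranking, and some members stood above their mesenchymal-like level in the fibroblast and mesothelial cluster. At a finer clustering, Timp2 stood at 1801 and 2189 CPM in its sub-cluster 43, against 877 and 823 CPM in mesenchymal-like cells.

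Mesenchymal-like cells, which hold stellate and contractile cells, led for the ADAMTS families. Their mean was 567 CPM for Adamts1 and 358 CPM for Adamts5, which cut the large proteoglycans of the matrix. It was 269 CPM for Adamts2, which removes the amino-terminal propeptide of fibrillar procollagens, and 184 CPM for Adamtsl4, a secreted relative without protease domain. Adamts13, which cuts von Willebrand factor and is known as a stellate cell product, stood at 119 CPM there and at 2.40 CPM in the next class. Neutrophil-like cells led for Mmp8 (neutrophil collagenase) at 4524 CPM, Mmp9 (gelatinase B) at 2321 CPM, Mmp25 (leukolysin) at 442 CPM and Adam8 at 363 CPM. The sheddases Adam10 and Adam17 were measured in all 13 classes. Their highest means were 449.9 CPM for Adam10 in scar-type macrophage-like cells and 235 CPM for Adam17 in Kupffer-like cells.

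**Figure D1:**
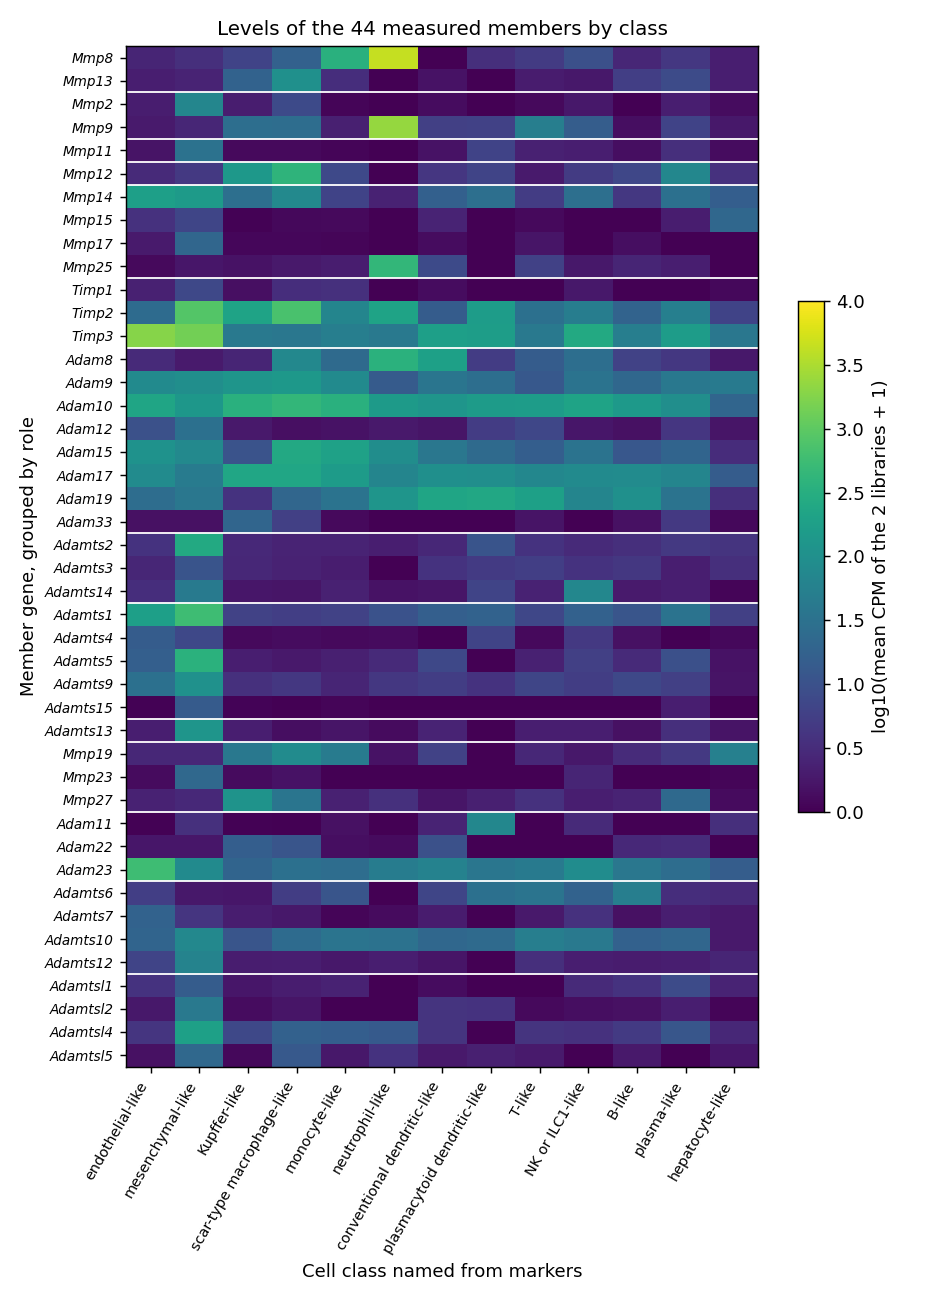
Level of the 44 measured members (vertical axis) in 13 cell classes (horizontal axis), as log10 of the CPM averaged over both libraries plus 1, shown by colour. Mmp8, Mmp9 and Mmp25 are brightest in neutrophil-like cells, most ADAMTS genes in mesenchymal-like cells, and Adam10, Adam17 and Timp3 show in every class.

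In endothelial-like cells, 1756 and 3469 cells with median depths of 6460.0 and 7119 counts, the hyalectan-cleaving ADAMTS genes stood lower in the library labelled knockout and Adam23 higher. Of 16 measured members 2 were higher and 5 lower. Over all 8964 genes measured in the class, 5.29% were higher and 10.5% lower. The median log2 ratio was -0.28 for the members and -0.03 for all measured genes.

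Hyalectans are the large hyaluronan-binding proteoglycans such as versican and aggrecan, and all 4 measured members of the group that cuts them were lower. Adamts4 (aggrecanase) stood at 25.4 and 1.48 CPM, with a log2 ratio of -4.10 (-4.60 to -3.63), with counts in 12.2% and 1.07% of cells. Adamts5, the other aggrecanase, stood at 27.8 and 2.79 CPM, with a log2 ratio of -3.32 (-3.69 to -2.96), with counts in 9.34% and 1.44% of cells. B-like cells, at median depths of 4519 and 4062 counts, had Adamts4 in 0.505% and 0% of cells (0 of 248 allows up to 1.21%) and Adamts5 in 1.52% and 0.403%, so the endothelial shares of the library labelled control lay above that background. With cells thinned to 4000 counts, after 101 and 384 shallower cells were left out, the endothelial shares were 7.55% (6.33 to 8.93) and 0.486% (0.272 to 0.801) for Adamts4. They were 6.10% and 0.681% for Adamts5. Those of the library labelled knockout were no higher than its B-like shares allow, at 0 of 130 thinned cells for Adamts4 (up to 2.80%, exact interval) and 0.769% for Adamts5.

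Adamts1, a versicanase that also restrains angiogenesis, stood at 232 and 126 CPM, with a log2 ratio of -0.88 (-0.95 to -0.81). Adamts9, a versicanase of vascular cells, stood at 43.4 and 15.6 CPM, with a log2 ratio of -1.48 (-1.66 to -1.30). Different clusters filled the class in the libraries, with 779 and 136 cells in cluster 0 against 56 and 1382 in cluster 4. Each of the 4 genes was nevertheless below its control level in all 8 endothelial-like clusters. Within cluster 1, which both libraries filled with 468 and 1057 cells, the log2 ratios were -1.16 for Adamts1, -3.43 for Adamts4, -3.16 for Adamts5 and -0.96 for Adamts9.

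Mesenchymal RNA differed in the same direction: the 11 mesenchymal markers summed to 364 and 101 CPM in endothelial-like cells, with none at 0. Per 100 mesenchymal marker counts, Adamts5 had 7.65 and 2.77 counts in endothelial-like cells and 2.03 and 0.723 in mesenchymal-like cells. For Adamts4 these values were 7.0 and 1.47 against 0.0461 and 0.00494, and for Adamts9 they were 11.9 and 15.5 against 0.450 and 0.337. The endothelial ratios of all 3 were above the mesenchymal ones in both libraries. NK or ILC1-like cells of the library labelled control also lay above them, at 4.84 for Adamts5, 3.63 for Adamts4 and 4.44 for Adamts9. Those 3 values rest on 12, 9 and 11 counts. Whether mesenchymal RNA accounts for the endothelial values was not tested.

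Adam23, a catalytically inactive ADAM known for cell adhesion, stood at 266 and 889.7 CPM, with a log2 ratio of 1.74 (1.69 to 1.79), with counts in 45.4% and 87.2% of cells. B-like cells had it in 5.05% and 11.3%. Thinned to 4000 counts, the endothelial shares were 39.6% (37.2 to 42.0) and 81.4% (80.0 to 82.8), and the B-like shares 4.49% and 10%. Adam23 was above its control level in all 8 clusters, but by unlike amounts. Its levels were 6.59 and 103 CPM in cluster 5, 170.3 and 354 CPM in cluster 0, 582 and 768 CPM in cluster 1, 732 and 1252 CPM in cluster 4, and 864 and 1645 CPM in cluster 26. Within cluster 1 the log2 ratio was 0.40, under the 1.5-fold size. Adam23 was among the 10 leading genes of cluster 4, although it had no part in the clustering, which held 56 and 1382 cells. The pooled ratio therefore includes which clusters each library filled.

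**Figure D2:**
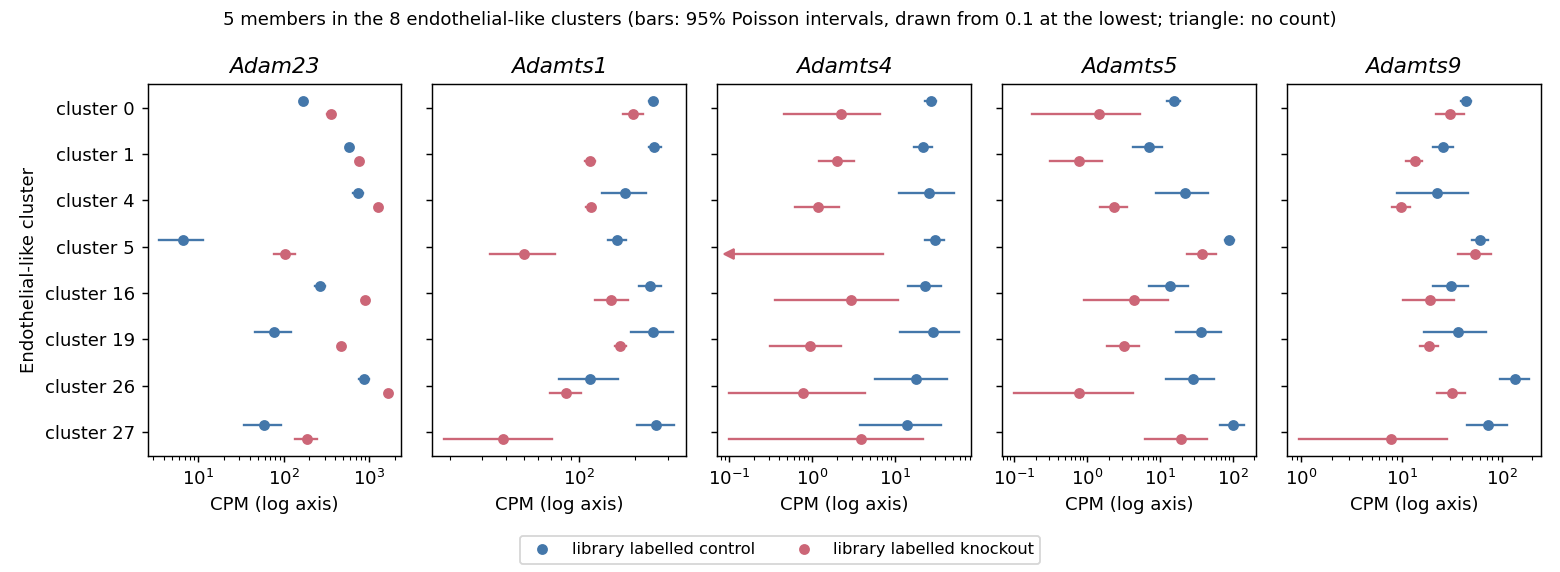
CPM on log axes of Adam23, Adamts1, Adamts4, Adamts5 and Adamts9 in the 8 endothelial-like clusters (vertical axis), with points for each library and bars for 95% Poisson intervals. Adam23 lies to the right in the library labelled knockout in every cluster and the ADAMTS genes lie to the left, with no Adamts4 count for the library labelled knockout in cluster 5.

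Among the sheddases, Adam19 stood at 37.0 and 15 CPM in endothelial-like cells, a log2 ratio of -1.30 (-1.49 to -1.11), which was -0.56 within cluster 1. Adam12, also a sheddase and low here, stood at 6.23 and 11.6 CPM, with a log2 ratio of 0.90 (0.54 to 1.27). It was above control in 6 of the 8 clusters and below it in 2. Adam10 at 235 and 212 CPM, Adam17 at 91.8 and 78.1 CPM and Adam15 at 117 and 99.4 CPM differed by less than 1.5-fold.

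Timp3, the matrix-bound inhibitor that also blocks ADAM17 and aggrecanases, stood at 1691 and 2099 CPM, with a log2 ratio of 0.31 (0.29 to 0.33). Its direction depended on the cluster, above control in 2 and below it in 6. Mmp14, the membrane-type MMP that activates the precursor of gelatinase A, stood at 212 and 147 CPM, with a log2 ratio of -0.52 (-0.59 to -0.45), and was below control in all 8 clusters. It missed the 1.5-fold size, as did Timp2 at 28.8 and 19.3 CPM and Adamts10, a fibrillin-linked member, at 21.0 and 16.6 CPM.

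Genes that work with these proteases were listed apart from the members. Of 8 measured MMP regulators (of 15 listed), 6 were lower in endothelial-like cells and none higher, with a median log2 ratio of -1.24, where 5.29% of all measured genes were higher and 10.5% lower. Plau, the urokinase that makes plasmin, stood at 229.8 and 97.5 CPM. Its receptor Plaur stood at 74.5 and 18.8 CPM. Of 8 measured ADAMTS substrates and partners (of 13), 6 were lower and none higher, among them Vwf, von Willebrand factor, at 64.6 and 21.9 CPM. The others were Fbn1 and 4 fibrillar collagen genes, which are also mesenchymal markers or their close relatives, and whether mesenchymal RNA accounts for them was not tested. Of 7 measured ADAM10 and ADAM17 partners (of 9), 2 were lower, among them Tspan5, a tetraspanin that escorts ADAM10, at 71.6 and 27.4 CPM. Of 11 measured shed substrates (of 18), 2 were higher, Mertk and Kit, and 3 lower, Il6ra, Axl and Csf1r. Kupffer-like cells had Csf1r at 2307 and 2751 CPM, against 75.9 and 31.9 CPM in endothelial-like cells. Mertk, Axl and Il6ra, and the lower regulators Lrp1 and Cd44, were also more abundant in Kupffer-like cells. The 8 Kupffer markers summed to 357 and 172 CPM in endothelial-like cells. Whether macrophage RNA accounts for these lower genes was not tested.

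In mesenchymal-like cells, 675 and 547 cells with median depths of 10805 and 8693 counts, Adamts5, Adamts2, Adamts12 and Timp1 stood lower in the library labelled knockout, and Adamts13, Adamts1 and Adamtsl4 higher. Of 30 measured members 4 were higher and 10 lower. Over all 9468 measured genes of the class, 8.03% were higher and 13% lower. The median log2 ratio was -0.20 for the members and -0.03 for all measured genes.

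The make-up of this class differed between the libraries. At a finer clustering most of it fell into 3 sub-clusters, with 309 and 12 cells in number 11, 343 and 248 in number 12, and 23 and 287 in number 34. The 6 smooth muscle or contractile markers summed to 3376 and 869 CPM over the class, and to 5544, 1585 and 958 CPM in the 3 sub-clusters of the library labelled control. The 8 stellate markers summed to 8650.0 and 14791 CPM over the class.

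Adamts5 stood at 507 and 209 CPM over the class, a log2 ratio of -1.28 (-1.38 to -1.19). In the library labelled control its order over the sub-clusters was that of the contractile sum, with 798 CPM in number 11, 271 CPM in number 12 and 75.0 CPM in number 34. Within number 12, which both libraries filled, it stood at 271 and 342 CPM, a log2 ratio of 0.34, so the direction turned there. Adamts2 stood at 358 and 179.8 CPM over the class and at 219 and 216 CPM within number 12. The lower class values of these 2 proteases were therefore not seen where cells of both libraries shared a sub-cluster.

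Adamts12, a secreted protease of connective tissue, kept its direction, at 87.2 and 32.8 CPM over the class and 61.3 and 34.7 CPM within number 12. Adamts4 stood at 11.5 and 1.43 CPM over the class, a log2 ratio of -3.01 (-4.26 to -1.98), and at 9.12 and 0.403 CPM within number 12. Mmp14 stood at 185 and 113 CPM over the class and at 166 and 115 CPM within number 12, where it missed the 1.5-fold size at -0.54. Mmp23, an MMP anchored to membranes before it is cut free, stood at 29.4 and 13.5 CPM, and Adamtsl1 at 19.6 and 7.13 CPM.

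Adamts13, Adamtsl4 and Adamts1 were higher over the class and within number 12. Adamts13 stood at 72.8 and 165 CPM over the class, a log2 ratio of 1.18 (1.03 to 1.33), and at 71.9 and 119 CPM within number 12, a log2 ratio of 0.73. In number 34 it stood at 173 and 202 CPM, under the 1.5-fold size. Adamtsl4 stood at 131 and 237 CPM over the class and at 146 and 234 CPM within number 12. Adamts1 stood at 416 and 718 CPM over the class, a log2 ratio of 0.79 (0.72 to 0.85), and at 399 and 679 CPM within number 12. Its direction was thus opposite to that in endothelial-like cells, a difference that was not tested.

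**Figure D3:**
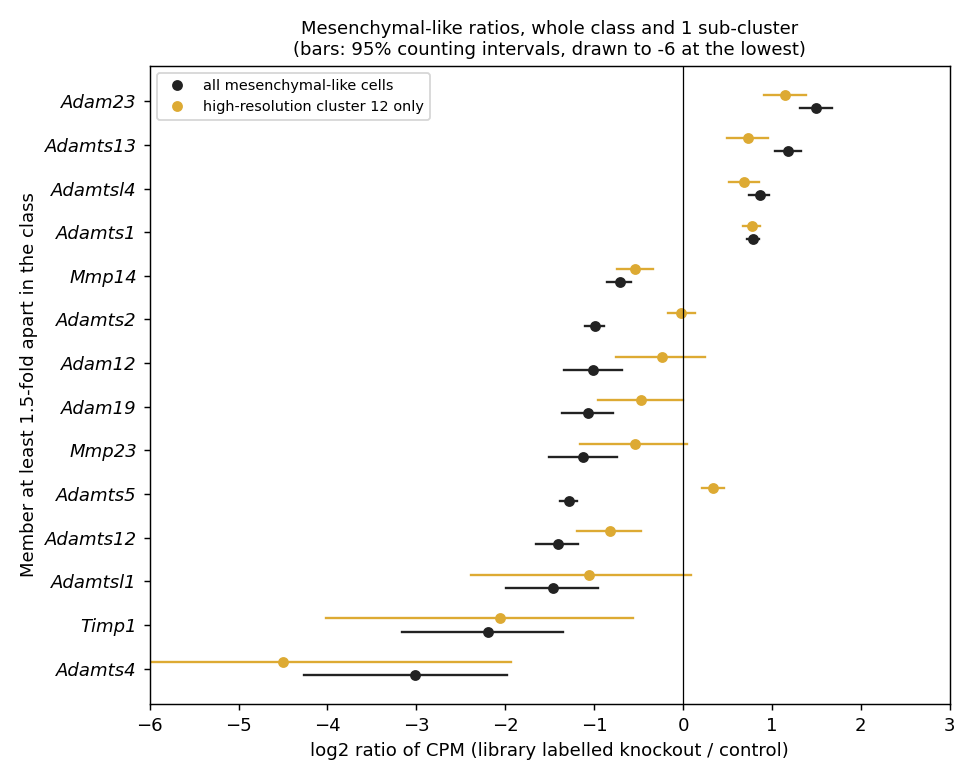
Log2 ratio of knockout over control (horizontal axis) of members in mesenchymal-like cells, for the whole class and for sub-cluster 12 alone, with bars for 95% counting intervals. Adamts5 lies at -1.28 for the class and 0.34 within the sub-cluster, while Adamts13, Adamts1 and Adamtsl4 lie above 0 in both.

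Inhibitors split in mesenchymal-like cells. Timp1, the inhibitor known from activated stellate cells, was low there at 10.6 and 2.32 CPM, with a log2 ratio of -2.19 (-3.16 to -1.35) from 93 and 13 counts. Timp2 stood at 877 and 823 CPM and Timp3 at 1471 and 1293 CPM over the class, both under the 1.5-fold size. Gelatinase A, Mmp2, stood at 66.1 and 66.8 CPM, and Mmp11 (stromelysin-3) at 28.3 and 33.3 CPM. Among sheddases Adam12 stood at 38.4 and 19.1 CPM and Adam19 at 50.5 and 24.1 CPM, both lower, while Adam10 at 139.6 and 119 CPM was not. Adam12 was at 24.3 and 20.6 CPM within number 12, under the 1.5-fold size.

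Adam23 stood at 43.2 and 122 CPM in mesenchymal-like cells, a log2 ratio of 1.49 (1.31 to 1.68), and endothelial RNA was present beside it. The 10 endothelial markers summed to 2291 and 1926 CPM there against 15228 and 21376 CPM in endothelial-like cells. Adam23 had 1.89 and 6.31 counts per 100 endothelial marker counts in mesenchymal-like cells and 1.75 and 4.16 in endothelial-like cells. In Kupffer-like cells it had 1.18 and 3.78, and in B-like cells 4.12 and 5.42. In the library labelled knockout the ratio was above the endothelial 4.16 in T-like cells at 11.7, neutrophil-like cells at 12 and scar-type macrophage-like cells at 10.9. Adam23 was higher in 11 of 13 classes. The part of endothelial RNA in its values outside the endothelium was not tested.

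Of 14 measured MMP regulators in mesenchymal-like cells, 4 were higher and 7 lower. Reck, a membrane-anchored MMP inhibitor, stood at 44.6 and 97.5 CPM. Plau stood at 53.5 and 7.66 CPM and Thbs2, a matricellular protein that helps clear MMPs, at 215 and 54.9 CPM. Of 9 measured ADAMTS substrates and partners 1 was higher, Ltbp1, and 6 were lower. Col1a1, a procollagen cut by Adamts2, stood at 2471 and 575 CPM. Of 7 ADAM10 and ADAM17 partners 3 were lower, and of 15 shed substrates 3 were higher and 4 lower. Over all measured genes of the class 8.03% were higher and 13% lower.

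In Kupffer-like cells, the resident macrophages, 789 and 1294 cells with median depths of 11714 and 17022 counts, Mmp12 and Mmp13 stood lower in the library labelled knockout, and Mmp9 and Timp2 higher. Of 16 measured members 3 were higher and 4 lower. Over all 8621 measured genes of the class, 3.90% were higher and 5.13% lower. The median log2 ratio was 0.07 for the members and 0.03 for all measured genes.

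**Figure D4:**
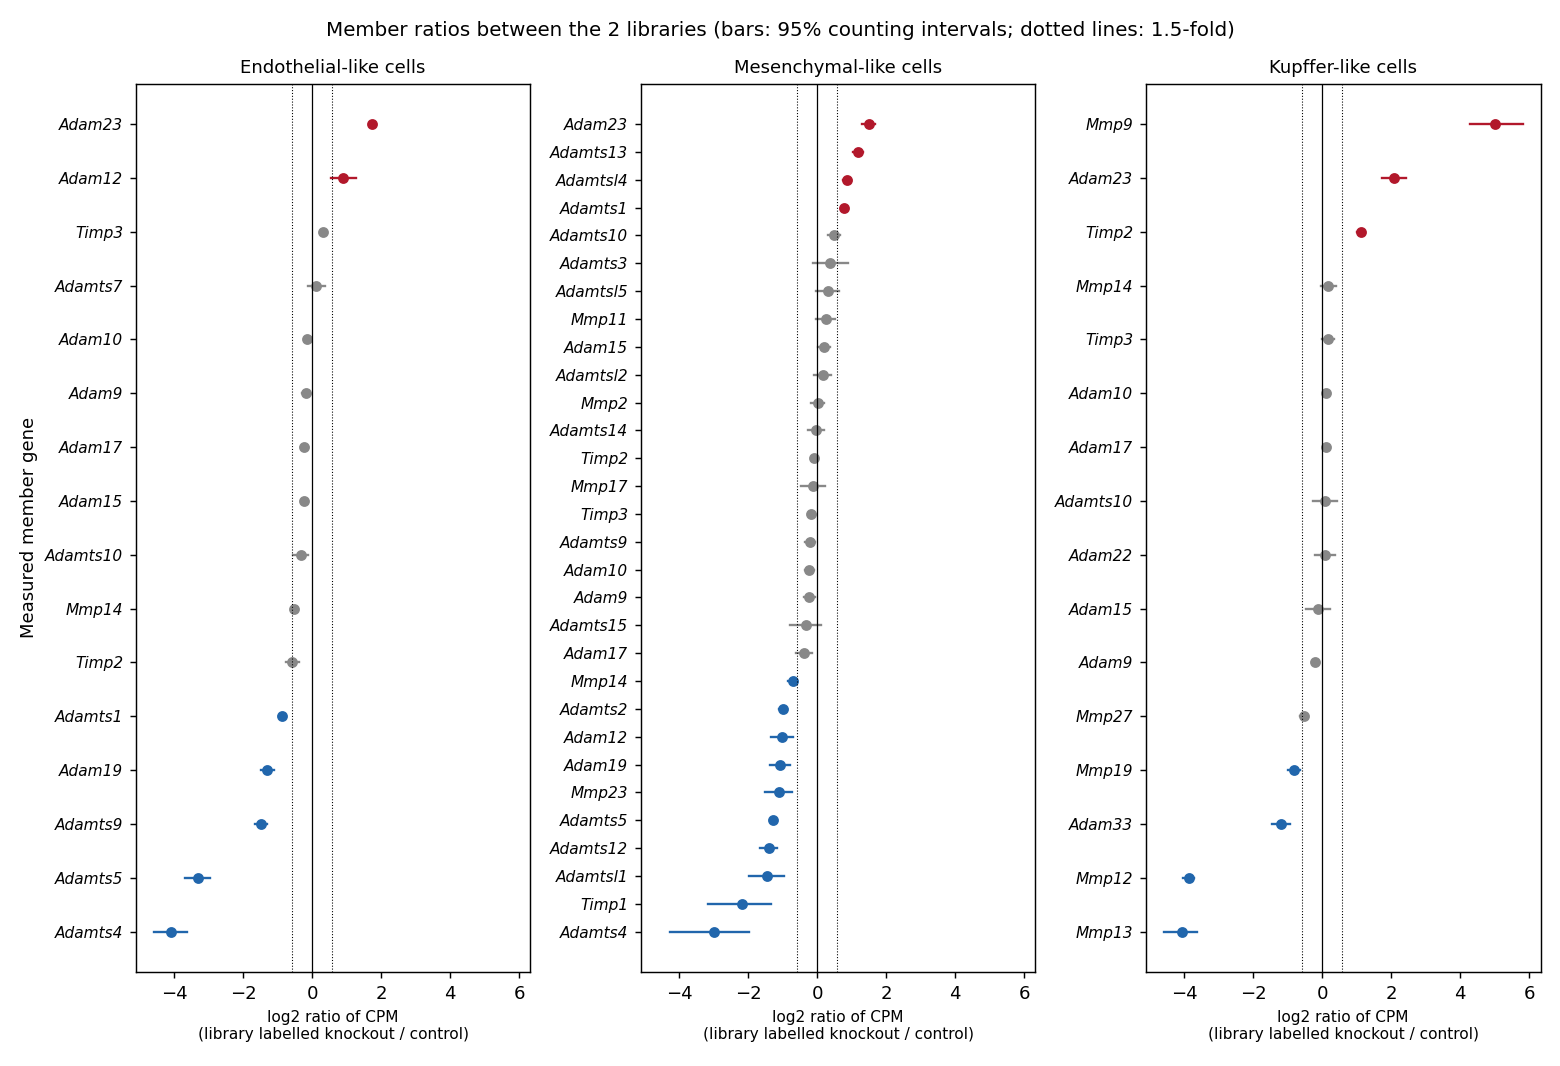
Log2 ratio of knockout over control of each measured member in endothelial-like, mesenchymal-like and Kupffer-like cells, with bars for 95% counting intervals, red for higher, blue for lower and grey for under 1.5-fold. Mmp9 at 5.0 in Kupffer-like cells is the highest point, and Adamts4 at -4.10 in endothelial-like cells and Mmp13 at -4.08 in Kupffer-like cells are the lowest.

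Mmp12, macrophage elastase, stood at 256 and 17.5 CPM, with a log2 ratio of -3.88 (-4.03 to -3.72). It was found in 23.4% and 1.85% of Kupffer-like cells, against 3.03% and 0% of B-like cells (0 of 248 allows up to 1.21%). Thinned to 4000 counts, after 25 and 33 shallower cells were left out, the Kupffer-like shares were 17.4% (14.8 to 20.3) and 0.872% (0.436 to 1.56). The counts were unevenly spread over cells, with 2550 counts in 185 cells of the library labelled control and 390 counts in 24 cells of the library labelled knockout. The 10 highest cells held 34.1% and 94.6% of them. In the library labelled knockout the class level was thus set by a few cells.

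Mmp13, the main interstitial collagenase of rodents and the neighbour of Mmp12, stood at 32.6 and 1.92 CPM, with a log2 ratio of -4.08 (-4.58 to -3.62), with counts in 11.5% and 1.93% of cells. The neighbours were often found together: in the library labelled control, Mmp13 was seen in 33.5% of the 185 cells with Mmp12 and in 4.80% of the 604 without it. Median depths were 15128 counts in the former and 10738 in the latter. In scar-type macrophage-like cells of that library the shares were 55.6% and 14.6%.

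The scar-type macrophage markers differed in the same direction within the Kupffer class, with a sum over 6 markers of 415 and 76.9 CPM and none at 0. Per 100 of those marker counts Mmp12 had 61.7 and 22.7 counts in Kupffer-like cells and 29.5 and 25.3 in scar-type macrophage-like cells. For Mmp13 the values were 7.85 and 2.50 against 8.07 and 6.06. Whether cells or RNA of that type account for the Kupffer values was not tested. Within finer sub-cluster 2, with 562 and 275 cells, Mmp12 stood at 319 and 83.2 CPM and Mmp13 at 39.5 and 5.17 CPM. Within sub-cluster 1, with 153 and 1005 cells, Mmp12 stood at 17.2 and 5.37 CPM, and Mmp13 at 1.91 and 1.34 CPM from 4 and 25 counts. The direction of Mmp12 held in both sub-clusters at a smaller size than over the class, and that of Mmp13 could not be read in sub-cluster 1. In 4 clusters left unnamed with Kupffer markers as their leading list and endothelial or stellate markers beside them, Mmp12 stood at 93.1 and 5.21 CPM (cluster 6), 175 and 0 CPM with an upper limit of 2.02 (cluster 10), 60.4 and 1.31 CPM (cluster 22) and 61.2 and 1.62 CPM (cluster 23). It was thus below its control level in each of them.

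Mmp9 stood at 1.61 and 51.4 CPM in Kupffer-like cells, a log2 ratio of 5.0 (4.29 to 5.81), from 16 and 1148 counts. It was found in 1.52% and 29.2% of these cells, against 0% (0 of 198 allows up to 1.52%) and 0.403% of B-like and 0.456% and 0.951% of endothelial-like cells. Thinned to 4000 counts the Kupffer-like shares were 0.393% (0.0811 to 1.14) and 14.7% (12.8 to 16.7). The 10 highest cells of the library labelled knockout held 12.9% of its 1148 counts, so the signal was spread over 378 cells. It stood at 1.91 and 53.7 CPM in sub-cluster 1 and at 1.48 and 41.0 CPM in sub-cluster 2.

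Neutrophils are the main source of Mmp9, and their RNA was compared beside it. The 8 neutrophil markers summed to 119.6 and 167 CPM in Kupffer-like cells, with none at 0. Per 100 neutrophil marker counts Mmp9 had 1.34 and 30.7 counts in Kupffer-like cells and 1.99 and 1.45 in neutrophil-like cells. Mmp8, which monocyte-like cells also carried at 411 and 289.9 CPM, stood at 7.64 and 2.91 CPM in Kupffer-like cells. Mmp8 therefore does not trace neutrophil RNA alone. In the library labelled knockout Mmp8 was seen in 3.70% of Kupffer-like cells with Mmp9 and in 2.62% of those without. S100a8, a leading gene of the neutrophil-like cluster, was seen in 25.9% of those with Mmp9 (98 of 378). It was seen in a smaller share of those without (174 of 916). The cells with Mmp9 were deeper, at a median of 18902 against 16096 counts. A ratio of Mmp9 to neutrophil markers above the neutrophil 1.45 was not particular to Kupffer-like cells in that library. It was 94.4 in T-like, 25.6 in NK or ILC1-like, 19.2 in plasma-like and 17.8 in scar-type macrophage-like cells. Endothelial-like cells had 1.58, B-like cells 0.467 and monocyte-like cells 0.195. Whether neutrophil RNA accounts for the Kupffer values was not tested. In clusters 22 and 23, left unnamed with Kupffer markers as their leading list, Mmp9 stood at 0 (up to 3.32) and 37.5 CPM and at 1.46 and 29.4 CPM.

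Timp2, the inhibitor that also takes part in the activation of gelatinase A, stood at 131 and 281 CPM, with a log2 ratio of 1.11 (1.02 to 1.19). It was found in 65.4% and 91.7% of Kupffer-like cells, and in 38.5% and 64.4% after thinning, against 11.1% and 2.42% of B-like cells. It stood at 116 and 285 CPM in sub-cluster 1 and at 137 and 259 CPM in sub-cluster 2. The 10 highest cells held 8.39% and 2.98% of its counts, so it was broadly spread over the class.

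**Figure D5:**
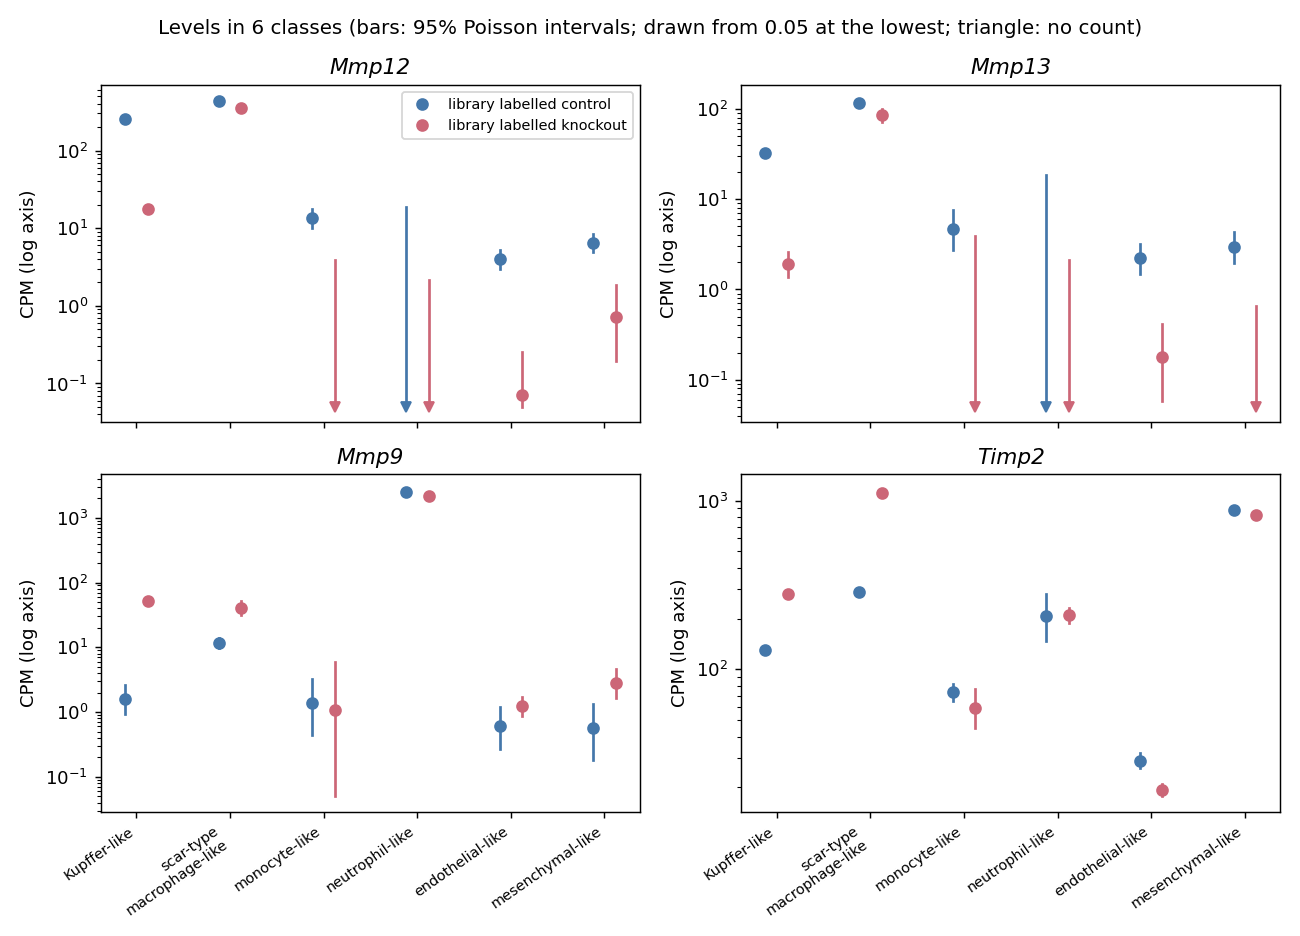
CPM of Mmp12, Mmp13, Mmp9 and Timp2 in 6 cell classes, with points for each library and bars for 95% Poisson intervals. In Kupffer-like cells Mmp12 lies at 256 and 17.5 CPM and Mmp9 at 1.61 and 51.4 CPM, while Mmp9 in neutrophil-like cells lies at 2473 and 2168 CPM.

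Other MMPs of the Kupffer class differed less. Mmp19 stood at 50.0 and 28.3 CPM, with a log2 ratio of -0.82 (-1.0 to -0.65). Mmp27, the third member of the chromosome 9 run in these cells, stood at 131 and 89.9 CPM. Its log2 ratio was -0.54 (-0.64 to -0.44), under the 1.5-fold size. Mmp14 stood at 26 and 29.4 CPM. Adam33, a sheddase measured in no other of the 13 classes, stood at 26.7 and 11.7 CPM. Its log2 ratio was -1.19 (-1.45 to -0.94). In the cholangiocyte-like cells, too few for the 13 classes, it stood at 0 and 62.9 CPM, from 0 and 33 counts. Adam10 at 328 and 357 CPM and Adam17 at 226 and 244 CPM were alike within 1.5-fold, as were Timp3 at 38.8 and 43.4 CPM and Adamts10 at 10.3 and 10.8 CPM. Adam23 stood at 7.24 and 30.4 CPM beside endothelial markers of 615 and 804 CPM.

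Over all measured genes of Kupffer-like cells 3.90% were higher and 5.13% lower. Among shed substrates Hbegf, an EGF-like growth factor released by ADAM17, was higher at 64.1 and 134 CPM. Of 6 MMP regulators 2 were lower, Plau at 41.6 and 17.7 CPM and Plaur at 19.1 and 9.08 CPM, and none was higher. None of 5 measured ADAM10 and ADAM17 partners reached 1.5-fold. Of 5 ADAMTS substrates and partners 3 were lower, all of them collagen genes that are also mesenchymal markers, whose sum in this class was 211 and 163 CPM.

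Scar-type macrophage-like cells, named from Gpnmb, Trem2 and related markers, numbered 942 and 132, with median depths of 8192 and 11579.5 counts. Mmp12 and Mmp13 were among the 10 leading genes of their cluster although they had no part in the clustering. Of 21 measured members 9 were higher and 2 lower, against 9.21% and 8.76% of 8840 measured genes. Mmp12 stood at 431 and 355 CPM and Mmp13 at 118 and 85.1 CPM, both under the 1.5-fold size. In the library labelled knockout 1 cell held 410 of the 613 Mmp12 counts, and 10 cells held 99.7%, so its level there says little about the class.

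Timp2 was among the higher members in scar-type macrophage-like cells, at 289 and 1107 CPM, with a log2 ratio of 1.94 (1.85 to 2.02), with counts in 58.9% and 82.6% of cells. Adam15, a membrane ADAM, stood at 139.5 and 378 CPM. The class ratios of both include which sub-clusters each library filled. Timp2 was nevertheless at least 1.5-fold above control within sub-clusters 10 and 37, with log2 ratios of 0.67 and 1.07. Timp2 stood at 146 and 231 CPM in sub-cluster 10, with 527 and 76 cells, and at 1018 and 2133 CPM in sub-cluster 37, with 151 and 46 cells. Adam15 stood at 57.1 and 56.9 CPM in the former and at 420.0 and 745 CPM in the latter. Mmp12 went opposite ways, at 564 and 174 CPM in the former and 276 and 582 CPM in the latter. In sub-cluster 9, with 254 and 9 cells, Timp2 stood at 102 and 107 CPM. Adam15 stood there at 168 and 80.5 CPM, from 285 and 6 counts.

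Mmp9 stood at 11.7 and 40.5 CPM in scar-type macrophage-like cells, from 28 and 9 cells with a count. Mmp27 was lower there at 51.4 and 18.0 CPM, with a log2 ratio of -1.52 (-2.09 to -0.99). Timp3 stood at 26.9 and 49.2 CPM and Adam23 at 7.67 and 50.4 CPM, beside endothelial markers of 329 and 463 CPM.

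Neutrophil-like cells, 36 and 219, carried their protease set at like levels. Mmp8 stood at 4715 and 4333 CPM, Mmp9 at 2473 and 2168 CPM, Mmp25 at 448 and 436 CPM, Adam8 at 378 and 347 CPM and Timp2 at 207 and 209 CPM. Of 13 measured members 2 were higher and 2 lower, against 22.1% and 17.8% of 7269 measured genes. Their number differed more than these levels, and of all Mmp8 counts 30.1% and 90.0% lay in neutrophil-like cells. Monocyte-like cells held 48.0% and 3.28% of them, at 411 and 289.9 CPM.

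In monocyte-like cells, 615 and 116, 3 of 15 measured members were higher and 3 lower, against 8.28% and 9.48% of all measured genes. Mmp19 stood at 58.7 and 30.7 CPM and Timp3 at 19.3 and 80.4 CPM, beside endothelial markers of 248 and 578 CPM. T-like cells had Mmp9 at 38.3 and 62.9 CPM, in 12.6% and 18.9% of cells, where B-like cells had it in 0% and 0.403%. The neutrophil markers summed to 85.6 and 66.6 CPM in T-like and 56.7 and 184 CPM in B-like cells. Whether neutrophil RNA accounts for Mmp9 in T-like cells was not tested. Of 13 measured members of T-like cells 3 were higher and 1 lower, against 11.5% and 12.2% of genes.

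The remaining classes added few members. Of measured members, 4 of 16 were higher and 5 lower in NK or ILC1-like cells, against 14.2% and 15.7% of genes. In conventional dendritic-like cells 3 of 12 were higher and none lower, against 13.3% and 8.94%. In plasmacytoid dendritic-like cells 2 of 7 were higher and none lower, against 20.9% and 11.7%. In plasma-like cells, only 31 and 34, none of 10 was higher and 6 were lower, against 12.6% and 31.9%. These shares lie near those of all genes in some classes, and a few counts decide them in the smallest. Adamts6 had its highest mean in B-like cells, at 31.9 and 68.0 CPM, where 4 of 11 measured members were higher and 1 lower against 14.5% and 13% of genes. Adamts14, a procollagen N-propeptidase, stood at 60.6 and 77.8 CPM in NK or ILC1-like cells, above its 42.6 and 41.7 CPM in mesenchymal-like cells. Plasmacytoid dendritic-like cells, only 29 and 48, led for Adam19 at 205 and 293 CPM and for Adam11 at 73.9 and 67.5 CPM. Mmp15, a membrane-type MMP of epithelia, stood at 12 and 29.3 CPM in hepatocyte-like cells, 267 and 84. There 2 of 8 measured members were higher and 1 lower, against 10.3% and 54.8% of genes. Mmp15 was more abundant in the few cholangiocyte-like cells, at 90.6 and 128 CPM from 4 and 67 counts.

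Timp2 and Timp3 were the inhibitors seen outside the mesenchyme. Timp2 stood at 26.7 and 32.2 CPM in T-like, 38.3 and 57.5 CPM in NK or ILC1-like, 26.8 and 8.61 CPM in B-like, 73.1 and 59.2 CPM in monocyte-like and 136 and 190.1 CPM in plasmacytoid dendritic-like cells. Conventional dendritic-like cells had Timp2 at 15.6 and 11.8 CPM and Timp3 at 107 and 254 CPM, and plasma-like cells had Timp2 at 74.5 and 30.2 CPM and Timp3 at 159 and 159.8 CPM. Endothelial RNA was present in all of these classes. Per 100 endothelial marker counts Timp3 had 11.1 and 9.82 counts in endothelial-like cells, 64.2 and 67.2 in mesenchymal-like cells, and between 5.40 and 9.66 in Kupffer-like, T-like, B-like and NK or ILC1-like cells of either library. In NK or ILC1-like cells Timp3 stood at 240.0 and 288 CPM, with counts in 24.3% and 23.5% of cells. Whether endothelial RNA accounts for its values in any of these classes was not tested.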

How the data were processed

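Whole-number counts per gene and barcode, deposited by the authors without normalization, were analysed for 1 library per genotype label. The labels name BD Rhapsody chemistry and a DNBSEQ instrument, and build GRCm39 comes from the submitters' processing notes. How reads were aligned, counted, collapsed by identifier and assigned to cells is not given in the sources used here. If reads and not molecules were counted, the intervals are too narrow. Members, lists and markers were chosen with earlier results of these data known.

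Barcodes were kept from 300 genes and 500 counts upward and up to 25% mitochondrial counts, 7917 and 8799 in the order control, knockout, from totals of 106208933 and 129802501 counts. Median counts per kept cell were 7972 and 9506. The lowest totals of any barcode were 3311 and 2848 counts, so the limit of 500 counts removed none. The same holds for the limit of 1000 counts in the stricter cell filter. Scrublet (Scanpy 1.11.5) marked under 0.5% with its automatic threshold and had not worked, so the top 5% of scores were removed instead (367 and 424 cells). Doublets thus remain possible, above all in the unnamed clusters. From 2000 variable genes, without the members, Ccn2 and mitochondrial, ribosomal and haemoglobin genes, 30 principal components, 15 neighbours and Leiden clustering at resolution 1.0 gave 32 clusters. Sub-clusters come from resolution 2.0. Clusters were named from marker lists. The naming limits, a leading score of at least 0.25, another class at no more than 0.18 and 3 or more markers detected in 10% of cells, were set after the clusters had been seen.

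Counts were summed per class and library and given as CPM with exact Poisson intervals, and ratios with exact conditional intervals (SciPy 1.17.1). Intervals of shares in thinned cells are exact Clopper-Pearson intervals. The limits given for 0 of 248 and 0 of 198 B-like cells are instead 3 divided by the number of cells. They are approximate and lie below the upper end of the exact interval. Where a library had no count, a ratio used a floor of 3 counts per library. The ratio code was tested on simulated counts. Named members were, in endothelial-like, mesenchymal-like and Kupffer-like cells, each measured one at least 1.5-fold apart and the highest of each role group, up to 5 with at least 100 counts elsewhere, and the TIMPs. Further ones were named after their values were seen. Alternatives were a stricter cell filter, called doublets kept, resolutions 0.5 and 2.0, a marker gate per cell, TMM and median-of-ratios factors (edgeR 4.0.16, factors only), other filters on low values, and cells thinned to 4000 counts. Sequences are RefSeq's for GRCm38.p6, found for 45 of 72 members.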

Additional observations from a re-analysis of the deposited data

Results flagged for a closer look

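Adamts1 had opposite directions in 2 classes, with a log2 ratio of -0.88 in endothelial-like cells and 0.79 in mesenchymal-like cells. Adam12 likewise had 0.90 in endothelial-like and -1.01 in mesenchymal-like cells, where it was under the 1.5-fold size within sub-cluster 12. Adam19 had -1.30 in endothelial-like and -1.07 in mesenchymal-like cells but 1.13 in scar-type macrophage-like cells, from 117 and 47 counts in the last. None of these differences between classes was tested, since each class has 1 library per label.

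Some symbols of the family were listed for 1 library only and were not compared. Mmp10, stromelysin-2, had 34 counts in the library labelled control, all of them in the unnamed cluster 20. Adam30 had 4 counts in the library labelled knockout.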

How the results depend on the processing

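All 28 named differences in endothelial-like (7), mesenchymal-like (14) and Kupffer-like cells (7) kept their direction under the 8 alternatives that can move a ratio; the filters on low values cannot. The 1.5-fold size was kept under all 8 by 7, 11 and 6 of these. With called doublets kept, the mesenchymal-like class held 612 and 221 cells, against 675 and 547 as reported. Under that setting Adam12 (-0.32), Adamts2 (-0.46) and Adamts5 (-0.17) in mesenchymal-like and Mmp19 (-0.48) in Kupffer-like cells fell short of it, as did Mmp19 (-0.35) with the marker gate. The cause was not tested. TMM and median-of-ratios scaling moved all endothelial log2 ratios by 0.13 and 0.12.

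Without a filter on low values the counts of members higher and lower, 2 and 5 as reported, were 8 and 34 in endothelial-like cells, with a median of -0.75. They were 13 and 19 (reported 4 and 10) in mesenchymal-like, and 9 and 19 (reported 3 and 4) in Kupffer-like cells, since members of few counts then enter. With at least 100 counts and 50 CPM, 1 and 1 remained above the size in endothelial-like cells, 5 were lower in mesenchymal-like and 2 in Kupffer-like cells, with fewer members left. With called doublets kept, 7 mesenchymal members were higher. At resolution 2.0, 9 Kupffer members were lower, with a median of -0.42, and the cause was not tested. The shares of all measured genes given above belong to the reported setting, and none are given for these alternatives. The counts here therefore do not show whether members differ from all genes.

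Alternatives chosen after seeing the data used 1 cluster filled by both libraries. Endothelial cluster 1 had 1 higher member, with Adam23 at 0.40. Mesenchymal sub-cluster 12 had 8 higher and 2 lower with a median of -0.02, and Adamts5 reversed to 0.34. No shares of all genes are given for these clusters alone, so their counts cannot be set against such a share. No paired analysis was possible because each label has 1 library, and no replicate could be left out. Depth limits members of few counts, such as Timp1 in mesenchymal-like cells.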

Other observations

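Timp1, the inhibitor most often named with fibrosis, had its counts mainly in the unnamed cluster 20, which carries fibroblast, contractile and mesothelial markers such as Eln, Upk3b and Col1a1. This cluster of 137 and 72 cells held 60.2% and 88.7% of all Timp1 counts, in the order control, knockout. Timp1 stood there at 123 and 326 CPM, a log2 ratio of 1.40, opposite to its direction in mesenchymal-like cells. At a finer clustering it stood at 81.1 and 187 CPM in sub-cluster 27, with 88 and 20 cells, and at 195 and 372 CPM in sub-cluster 43, with 50 and 54 cells. Its direction was the same in both sub-clusters.

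Stromelysin-1, Mmp3, was nearly confined to the same cells, with 26 of 27 and 30 of 33 counts in cluster 20, and stood at 25.4 and 23.6 CPM in sub-cluster 43. Gelatinase A, Mmp2, stood at 287 and 329.9 CPM and Adamts2 at 470.4 and 436 CPM in that sub-cluster, well above their mesenchymal-like levels. Mmp7, matrilysin, known from bile duct epithelium, had 18 of its 20 counts of the library labelled knockout in cholangiocyte-like cells, of which there were 5 and 42.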
